A study of Mus musculus with 2 samples.

Results

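Among 25652 cells kept from 2 single-cell RNA sequencing libraries of Nf1OPG mouse optic nerves, 68 cells (0.265%, exact 95% interval 0.206 to 0.336%) met a rule for classical monocytes built on Ly6c2. A cell was taken when it held at least 2 unique molecular identifiers (UMIs, each standing for 1 captured RNA molecule) of Ly6c2, at least 2 UMIs summed over Ccr2, Chil3 and Plac8, and at least 2 UMIs of Lyz2. It could hold at most 4 UMIs summed over C1qa, C1qb and C1qc, no UMI of Cd3d, Cd3e or Cd3g, and at most 1 UMI summed over Flt3 and Cd209a. Since the cells were selected on these measured values, the levels of those genes are a description and carry no test.

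The rule did not return a single kind of cell. By other genes the 68 cells fell into 4 kinds. High RNA of the neutrophil granule genes Ngp, Camp and Ltf was in 22. Another 13 had MHC class II RNA and the dendritic cell genes Xcr1 or Clec9a. MHC class II RNA without Xcr1 or Clec9a was in 16. The last 17 held at most 6 UMIs of MHC class II genes, at most 1 of the granule genes and none of Xcr1 or Clec9a. The label of classical monocyte is therefore not met by the first 2 kinds, 35 of the 68 cells, and the cells are called below by their rule and by these genes. The 33 cells of the other kinds, 6 in the library C-ON and 27 in FMC_new, carried further monocyte genes.

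Both libraries came from 12-week-old Nf1OPG mice, which are Nf1 flox/mut and carry GFAP-Cre on a C57BL/6 background. Cre driven by the GFAP promoter removes the remaining Nf1 allele in cells of the GFAP lineage, so the monocytes, neutrophils and dendritic cells of these mice keep 1 functional allele. Optic nerves of 10 mice were pooled for a suspension, so a library has no animal replicates within it. The title of C-ON carries the word control while its genotype label is the same as that of FMC_new, and what control stands for is not stated, so both were placed in 1 group and no comparison of conditions was possible. C-ON gave 8834 kept cells and FMC_new 16818, with a median of 6810.5 and 4676 UMIs a cell. Differences between the libraries below are between 2 suspensions and have no replicate check. Every selected cell of FMC_new held at least 6 UMIs of the pituitary growth hormone gene Gh, and no selected cell of C-ON held one. Pituitary RNA was therefore in the FMC_new suspension, and its part in differences between the libraries was not tested.

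Classical monocytes are made in the bone marrow, leave it through the chemokine receptor CCR2, and carry the surface protein Ly-6C encoded by Ly6c2. In tissue they can lose Ly-6C and take on macrophage or dendritic cell features, including MHC class II. Developing neutrophils come from the same marrow progenitors, make granule proteins before they are released, and can also carry Ly6c2 and Chil3. Type 1 conventional dendritic cells, marked by Xcr1 and Clec9a, present antigen to CD8 T cells. Monocyte-derived cells are part of the tumor-associated monocyte compartment of murine optic gliomas, and pexidartinib, one of the agents used in the study, inhibits the receptor encoded by Csf1r.

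The promoters of 5 genes are shown: 4 granule genes that set the Ngp/Camp cells apart, and Ly6c2, from which the rule starts. Each is the RefSeq sequence of the GRCm38.p6 assembly from 250 bases before to 50 bases after a RefSeq start site, 5′ to 3′ on the strand of the gene. These start sites can differ from the starts of the GENCODE gene positions given below, so a stretch can reach into the GENCODE gene. The Lcn2 stretch lies wholly inside it (chr2:32384633-32388252). Capitals mark matches on either strand to TTGCNNAA, a C/EBP-type core, or to GAGGAAG, a PU.1 core. C/EBP factors and PU.1 are transcription factors of granulocyte and monocyte development. The matches shown do not overlap each other. The stretches lie at chr9:110419558-110419857 (plus strand) for Ngp, chr9:109849407-109849706 (minus) for Camp, chr9:111019042-111019341 (plus) for Ltf, chr2:32387690-32387989 (minus) for Lcn2 and chr15:75111922-75112221 (minus) for Ly6c2.
Ngp: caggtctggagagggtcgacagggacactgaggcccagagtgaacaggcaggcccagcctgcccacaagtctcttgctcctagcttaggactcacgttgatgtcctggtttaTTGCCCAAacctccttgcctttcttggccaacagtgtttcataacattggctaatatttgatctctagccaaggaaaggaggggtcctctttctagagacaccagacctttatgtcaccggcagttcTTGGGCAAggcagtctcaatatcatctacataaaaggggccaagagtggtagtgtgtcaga
Camp: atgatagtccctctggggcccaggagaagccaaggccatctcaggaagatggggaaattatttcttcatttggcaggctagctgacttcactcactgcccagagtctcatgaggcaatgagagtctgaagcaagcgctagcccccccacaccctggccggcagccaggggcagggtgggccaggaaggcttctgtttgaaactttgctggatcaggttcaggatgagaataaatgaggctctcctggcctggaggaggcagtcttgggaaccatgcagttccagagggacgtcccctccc
Ltf: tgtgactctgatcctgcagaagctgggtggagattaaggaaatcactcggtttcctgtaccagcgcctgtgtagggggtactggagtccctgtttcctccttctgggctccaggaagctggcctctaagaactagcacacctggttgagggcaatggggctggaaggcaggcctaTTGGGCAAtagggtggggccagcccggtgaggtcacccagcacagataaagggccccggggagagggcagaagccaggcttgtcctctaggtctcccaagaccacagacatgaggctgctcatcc
Lcn2: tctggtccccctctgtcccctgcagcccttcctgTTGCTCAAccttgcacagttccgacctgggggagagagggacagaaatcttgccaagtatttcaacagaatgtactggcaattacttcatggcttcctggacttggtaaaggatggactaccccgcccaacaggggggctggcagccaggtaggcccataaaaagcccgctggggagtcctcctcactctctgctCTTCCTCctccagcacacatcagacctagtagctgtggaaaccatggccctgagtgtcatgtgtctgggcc
Ly6c2: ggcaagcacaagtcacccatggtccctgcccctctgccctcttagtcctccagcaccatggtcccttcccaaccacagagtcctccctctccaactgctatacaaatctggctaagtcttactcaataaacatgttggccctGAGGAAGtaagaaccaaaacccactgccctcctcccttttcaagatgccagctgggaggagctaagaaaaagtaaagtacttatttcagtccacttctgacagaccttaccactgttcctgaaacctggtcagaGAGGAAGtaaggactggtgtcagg
Counted from the RefSeq start site as 0, the TTGCNNAA matches began at -138 and -11 in Ngp, at -75 in Ltf and at -216 in Lcn2. Camp held no match of either motif. GAGGAAG began at -21 in Lcn2 and at -108 and 26 in Ly6c2. Ly6c2 has a second RefSeq promoter (chr15:75111888-75112187), in which GAGGAAG began at -142 and -8. The promoter of Ccr2 (chr9:124101933-124102232) held neither. Over all 32851 promoters of the same length, 10.8% held TTGCNNAA and 13.6% held GAGGAAG. Of the 16 genes of the neutrophil list, 15 had a RefSeq promoter, of which 7 held TTGCNNAA and 5 held GAGGAAG in any of their promoters. A gene can have several promoters, as Ly6c2 does, so these counts of genes are not the same measure as the shares of promoters. Such a match is a run of letters and does not show that a factor binds there.

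The cells were rare in both libraries. C-ON held 10 of them (0.113% of kept cells, 0.0543 to 0.208%) and FMC_new 58 (0.345%, 0.262 to 0.446%). These exact Clopper-Pearson intervals, and the exact Poisson intervals given with levels, cover counting error alone. Another 1 barcode in C-ON and 5 in FMC_new met the rule outside the limits on genes and UMIs. No barcode of these cells was shared by the libraries, although 296 barcodes of the deposited files were.

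The limits on Ly6c2 and Lyz2 left out more cells than the others, with 13 cells of C-ON and 105 of FMC_new that failed Ly6c2 alone and 35 and 96 that failed Lyz2 alone. Exactly 2 Ly6c2 UMIs, the fewest allowed, were held by 1 cell of C-ON and 11 of FMC_new, and 1 and 25 further cells held 1 Ly6c2 UMI and met all else. At the limit on dendritic cell genes, 5 and 11 cells held 1 UMI of Flt3 or Cd209a, and 2 and 9 more were left out with 2. Only 1 cell, in FMC_new, sat at the C1q limit of 4. Of the cells that failed the Lyz2 limit and nothing else, 35 in C-ON and 96 in FMC_new, most (20 and 67) had MHC class II RNA without Xcr1 or Clec9a.

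**Figure D1:**
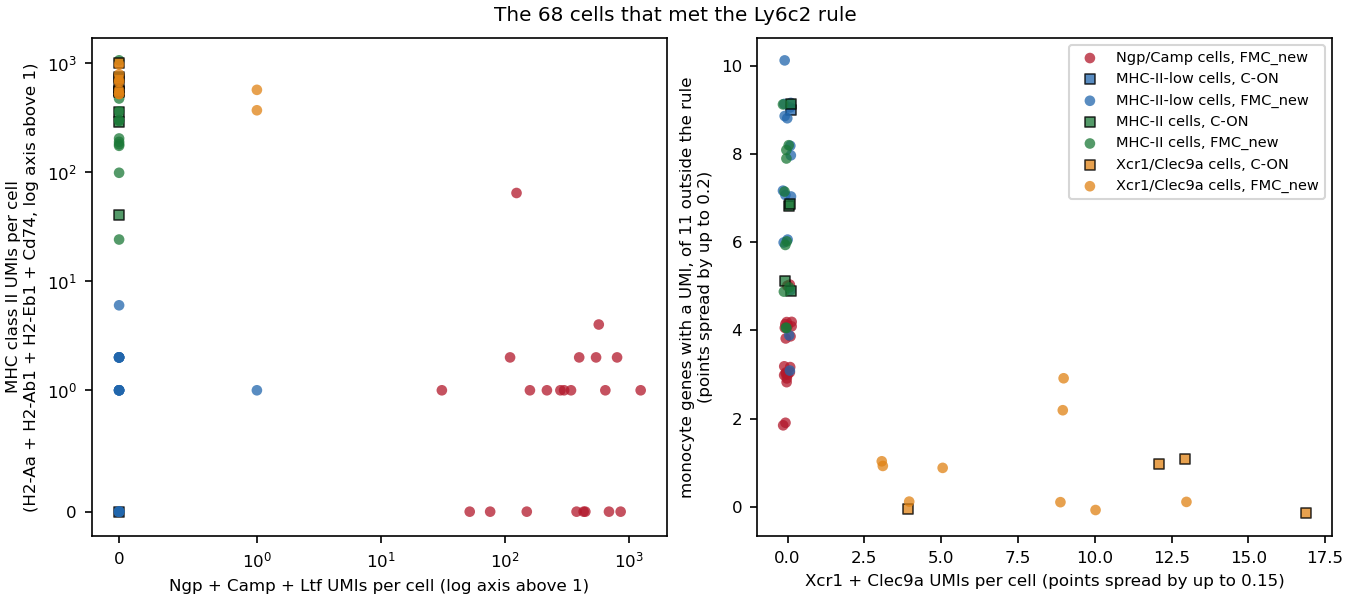
The 68 cells by the genes that separate the 4 kinds, with squares for C-ON and circles for FMC_new. Left, UMIs of Ngp, Camp and Ltf against UMIs of H2-Aa, H2-Ab1, H2-Eb1 and Cd74 per cell, on axes that are logarithmic above 1; right, UMIs of Xcr1 and Clec9a against how many of 11 monocyte genes outside the rule had a UMI, with points shifted slightly so that they do not cover each other. No cell lies between 1 and 31 granule gene UMIs, and the Xcr1/Clec9a cells sit at 3 or fewer of the 11 genes.

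The kinds were set apart by gaps and not by a slope, as the plot of granule and MHC class II UMIs shows. They were defined after the values had been seen, with limits of 10 UMIs of Ngp, Camp and Ltf, 10 UMIs of H2-Aa, H2-Ab1, H2-Eb1 and Cd74, and 1 UMI of Xcr1 or Clec9a. The lowest granule sum inside the Ngp/Camp kind was 31 UMIs and the highest outside it was 1. The MHC class II sum was at least 24 in the cells called positive and at most 6 in the MHC-II-low cells, while the Ngp/Camp cells ranged from 0 to 64. The Xcr1/Clec9a cells each held at least 3 UMIs of these 2 genes and the other cells none.

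The libraries held the kinds in different proportions. The Ngp/Camp cells were 22 of 58 in FMC_new (37.9%, 25.5 to 51.6%) and 0 of 10 in C-ON, which allows a share of up to 30.9% by the exact interval. The MHC-II-low cells were 16 of 58 in FMC_new (27.6%, 16.7 to 40.9%) and 1 of 10 in C-ON. The MHC-II cells were 11 of 58 (19.0%, 9.87 to 31.4%) and 5 of 10 (50%, 18.7 to 81.3%). The Xcr1/Clec9a cells were 9 of 58 (15.5%, 7.35 to 27.4%) and 4 of 10 (40.0%, 12.2 to 73.8%). With only 10 cells in C-ON, each of these intervals overlaps that of FMC_new. Neutrophils were likewise found in FMC_new alone: C-ON held 0 and FMC_new 46 cells that met a rule for neutrophils without Ly6c2, and 0 and 78 kept cells of any kind had 10 or more granule gene UMIs, of which 22 met the Ly6c2 rule. Read over libraries of different depth, the share of cells with at least 10 MHC class II UMIs was 90.0% in C-ON and 36.2% in FMC_new, and after each cell was thinned to 2000 UMIs it was 90.0% of 10 cells and 35.9% of 53 cells deep enough.

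Of the 5 genes that the rule asked for, Ly6c2 and Lyz2 were present in every cell, since the rule required them. Ly6c2, which encodes the Ly-6C antigen (chr15:75108158-75111970, minus strand, GRCm38), had a lowest, median and highest count of 2, 5 and 59 UMIs in the cells of C-ON and 2, 5 and 87 in those of FMC_new. In FMC_new the median Ly6c2 count was 5 UMIs in Ngp/Camp cells, 11 in MHC-II-low cells, 8 in MHC-II cells and 3 in Xcr1/Clec9a cells. The ranges of the kinds overlapped throughout, from 2 to 15, 2 to 87, 2 to 43 and 2 to 7. As CPM, the UMIs of a gene per 1000000 UMIs summed over the cells,, Ly6c2 was 1087 (911 to 1286), 3391 (3047 to 3762), 2013 (1717 to 2346) and 324 (219 to 462) in that order. T cells, which can also carry Ly-6C, had 476 CPM in FMC_new, above the level of the Xcr1/Clec9a cells, and oligodendrocytes had 49.3. Its neighbour Ly6c1, a near-identical copy whose reads could be split with it, had no UMI in any of the 68 cells.

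Ccr2, the receptor for the monocyte attractant CCL2 (chr9:124101950-124113557, plus strand), had no UMI in any of the 22 Ngp/Camp cells. It had a UMI in 13 of 16 MHC-II-low, 10 of 11 MHC-II and 8 of 9 Xcr1/Clec9a cells of FMC_new and in all 10 cells of C-ON, where it ran from 2 to 9 UMIs with a median of 4.5. Its highest level in FMC_new was that of the MHC-II cells, 724 CPM (551 to 934), against 468 in MHC-II-low cells, 313 in Xcr1/Clec9a cells, 190 in macrophages with C1q and 197 in dendritic cells with Cd209a. In oligodendrocytes of FMC_new, which should lack it, a Ccr2 UMI was in 1.95% of cells. Their median depth of 6747 UMIs was above that of MHC-II-low (6184.5) and MHC-II cells (5582) but below that of Xcr1/Clec9a cells (9618).

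Chil3, a secreted chitinase-like protein of monocytes and of developing neutrophils (chr3:106147554-106167564, minus strand), ran the other way. Ngp/Camp cells of FMC_new held 0, 14 and 143 UMIs (lowest, median and highest), with a UMI in 21 of 22. MHC-II-low cells held 0, 5 and 45, MHC-II cells 0 to 4 with a UMI in 4 of 11, and no Xcr1/Clec9a cell held one. Ngp/Camp cells thus gave 79.4% of the 1030 Chil3 UMIs of all 68 cells, and C-ON 1 UMI in all. Of Ccr2, Chil3 and Plac8, Chil3 alone had a UMI in 16 of the 22 Ngp/Camp cells, and Ccr2 alone in 5 of the 13 Xcr1/Clec9a cells.

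Plac8, a small cysteine-rich protein of myeloid and lymphoid cells (chr5:100553725-100572245, minus strand), was highest in MHC-II cells. It ran from 1 to 44 UMIs with a median of 16 in the 11 MHC-II cells of FMC_new, from 0 to 29 with a median of 6.5 in MHC-II-low cells, and from 0 to 8 with a median of 2 in Xcr1/Clec9a cells. Only 6 of 22 Ngp/Camp cells held a Plac8 UMI. The level of Plac8 in MHC-II cells was 2602 CPM in FMC_new and 3279 in C-ON. Lyz2, the lysozyme of myeloid cells (chr10:117277331-117282321, minus strand), had a median of 130 UMIs in MHC-II-low, 84 in MHC-II, 37 in Ngp/Camp and 7 in Xcr1/Clec9a cells of FMC_new. The Lyz2 ranges of MHC-II-low cells (20 to 340) and Xcr1/Clec9a cells (2 to 19) did not overlap. A UMI of all of Ly6c2, Ccr2, Chil3 and Plac8 together was held by 16 of the 68 cells, 12 of them MHC-II-low and 4 MHC-II.

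**Figure D2:**
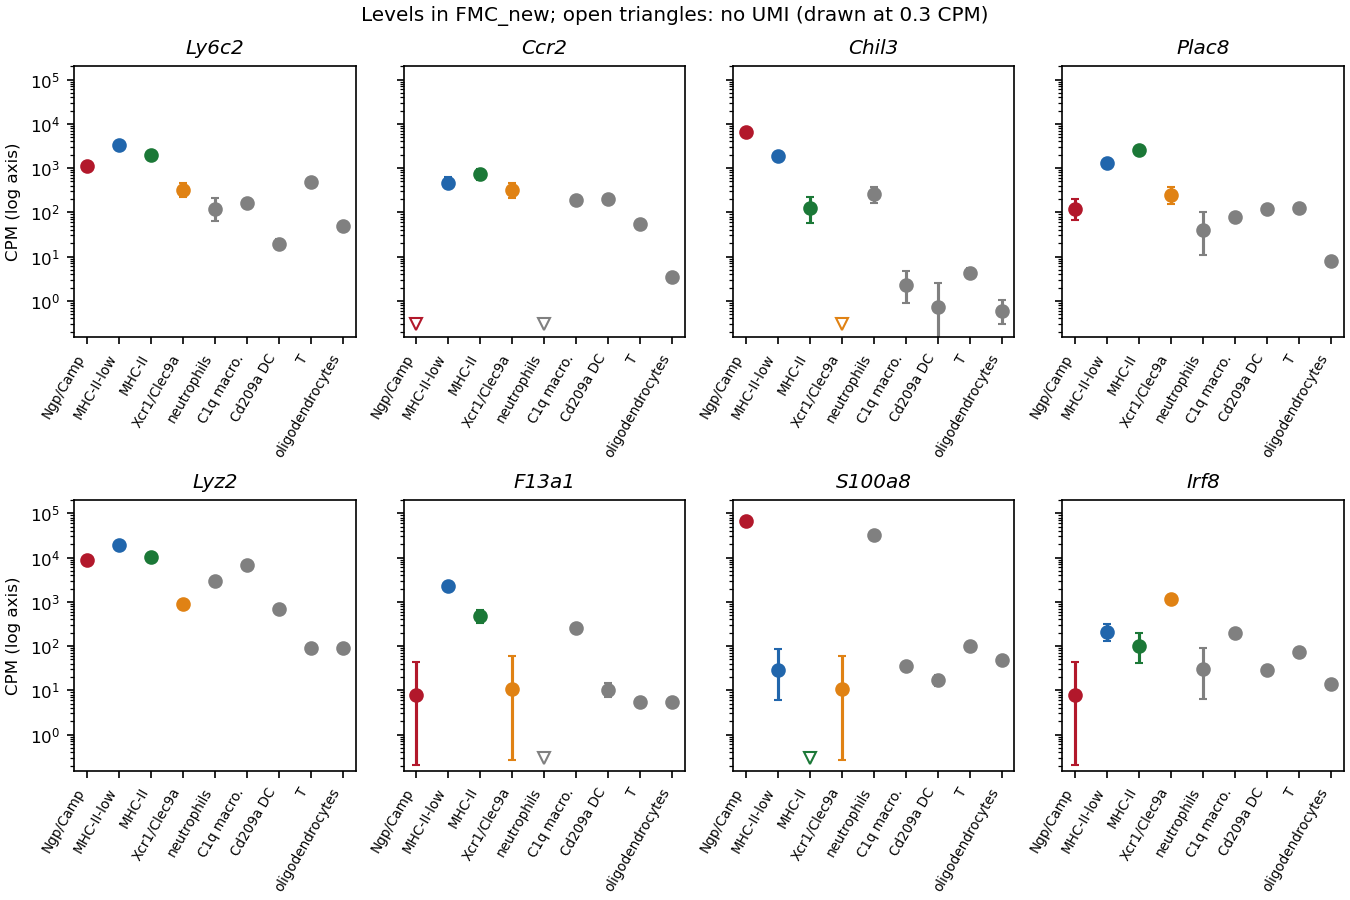
Level in CPM (log axis, with exact 95% Poisson intervals) of 8 genes in the 4 kinds of selected cells and in 5 other populations of FMC_new. Open triangles stand for no UMI. Ly6c2 and Lyz2 are lowest in the Xcr1/Clec9a kind among the selected cells, F13a1 peaks in the MHC-II-low cells at 2273 CPM, S100a8 in the Ngp/Camp cells and Irf8 in the Xcr1/Clec9a cells at 1177 CPM.

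Monocyte genes that the rule did not use differed between the kinds, with ranges that overlapped. Of 29 measured genes in a list of monocyte markers outside the rule, 27 had a UMI in at least 20% of MHC-II-low cells of FMC_new, 27 did so in MHC-II cells, 17 in Ngp/Camp cells and 10 in Xcr1/Clec9a cells. Over all 32285 genes that share was 11.4%, 11.9%, 7.77% and 17.5% in the same order. A total of 11 genes of this list (F13a1, Vcan, Fn1, Cd14, Hp, Mgst1, Ms4a4c, Ms4a6c, Ifitm6, Csf1r and Fcgr1) was counted cell by cell. The median cell of FMC_new held a UMI of 7.5 of the 11 in the MHC-II-low kind (3 to 10), 6 in the MHC-II kind (4 to 9), 3.5 in the Ngp/Camp kind (2 to 5) and 1 in the Xcr1/Clec9a kind (0 to 3). In C-ON the count was 9 in the 1 MHC-II-low cell, 7 in the median MHC-II cell and 0.5 in the median Xcr1/Clec9a cell. At least 6 of the 11 were held by 24 of the 68 cells: 14 MHC-II-low, 10 MHC-II and none of the other kinds.

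F13a1, the A chain of coagulation factor XIII, was found mostly in the MHC-II-low cells. Its counts there were 0, 16.5 and 33 UMIs in FMC_new (lowest, median and highest), with a UMI in 14 of 16 cells, and 40 UMIs in the cell of C-ON. MHC-II cells of FMC_new held 0 to 9, and 85.3% of the 326 F13a1 UMIs of all cells came from the MHC-II-low kind. The F13a1 level of 2273 CPM (1994 to 2581) was above the 255 CPM of C1q macrophages in FMC_new (653 in C-ON). Fn1, fibronectin, was 1375 CPM in MHC-II-low cells, 319 in MHC-II cells and without a UMI in the other kinds of FMC_new. Cd14, a co-receptor for lipopolysaccharide, was 1490 CPM in MHC-II-low, 411 in Ngp/Camp and 147 in MHC-II cells of FMC_new.

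The Ngp/Camp cells carried the granule genes of neutrophils at high level. Of the 11 monocyte genes counted cell by cell, Hp and Ifitm6 had a UMI in 22 of 22 cells, Cd14 in 16 and Mgst1 in 15. F13a1, Ms4a6c and Csf1r each had a UMI in 1 cell, and Vcan, Fn1, Ms4a4c and Fcgr1 had none. Each of the 22 cells, all in FMC_new, held 15 to 456 UMIs of Ngp (neutrophilic granule protein, chr9:110419747-110423012, plus strand) with a median of 182.5. Camp, the cathelicidin precursor (chr9:109847379-109849617, minus strand), ran from 16 to 776 with a median of 74.5, and Ltf, lactotransferrin (chr9:111019271-111042767, plus strand), from 0 to 162 with a median of 47.5. Lcn2, lipocalin 2, which binds bacterial siderophores and was not used to define the kind, ran from 13 to 225 with a median of 65.5. The calcium-binding pair S100a8 and S100a9 had medians of 310 and 480.5 UMIs, with ranges of 4 to 1380 and 13 to 1869. Nearly all S100a8 RNA of the selected cells was here, 8126 of 8130 UMIs, and likewise S100a9, 11437 of 11442. In oligodendrocytes of FMC_new an Ngp UMI was in 3.73% of cells and a Camp UMI in 4.86%, and all 22 Ngp/Camp cells had both genes.

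Over the 16 genes of the neutrophil list, 15 had a UMI in at least 20% of the Ngp/Camp cells of FMC_new. The count was 2 in the MHC-II-low cells, 0 in the MHC-II cells and 2 in the Xcr1/Clec9a cells. Over all genes the share was 7.77%, 11.4%, 11.9% and 17.5% in the same order. The list holds Ngp, Camp and Ltf, which defined the kind, so its count and summed level are in part set by that division. The summed level of the list was 255500 CPM in Ngp/Camp cells, 115800 in the 46 neutrophils, and between 75.6 and 267 in the other kinds of FMC_new. Genes of early and late neutrophil stages differed in direction. Cebpe, a transcription factor of the granule-making stages, had a UMI in 14 of 22 Ngp/Camp cells (266 CPM) and none in the neutrophils. Retnlg, a resistin-like gene of late neutrophils, was lower in the sum of Ngp/Camp cells (10120 CPM) than in neutrophils (19120). Within the kind, 12 of 22 cells held 11 to 228 Retnlg UMIs and the others none. The chemokine receptor Cxcr2 (258 against 619) and the G-CSF receptor Csf3r (113 against 802) were lower too. Neutrophils were defined partly by Retnlg, Cxcr2 and Csf3r, so these differences describe the choice of cells.

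Set against the neutrophils across 4013 genes tested in FMC_new, the Ngp/Camp cells were past 2-fold higher for 10.7% of genes and lower for 43.4%. Of 10 tested cell cycle genes 8 were higher and none lower, with a median log2 difference of 1.88 against -0.67 over all genes tested. Mki67, a proliferation antigen, was at 354 CPM with a UMI in 8 of 22 cells and was at least 11.6-fold higher, since no neutrophil held a UMI. Top2a, a topoisomerase of dividing cells, had 41 UMIs in 6 of 22 cells against 1 UMI in the neutrophils. All 3 tested genes of the progenitor list, the primary granule proteases Elane and Prtn3 and the marrow gene Ms4a3, were higher, but 1 of the 22 cells held all 9 Elane and all 10 Prtn3 UMIs, and Ms4a3 was in 3 cells. Fcnb, a ficolin of marrow myeloid cells, was at least 11.9-fold higher and Cebpe at least 8.73-fold, both against neutrophils without a UMI. On the lower side Il1b, which encodes the cytokine IL-1β, had 3 UMIs (24.2 CPM) against 254 (2577 CPM), and the chemokine gene Ccl6 had none and was at least 66.0-fold lower, and all 6 tested chemokine genes were lower. The neutrophils were shallow, with a median of 1645 UMIs against 4411.5, and carried more oligodendrocyte RNA (18440 against 3042 CPM over the list). All 8 oligodendrocyte genes were lower in the Ngp/Camp cells, and the part of this RNA in the lower calls was not tested.

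Of the 22 Ngp/Camp cells, 2 held RNA of another source in bulk. A cell of 18122 UMIs had 618 of Jchain, the joining chain of secreted antibodies, and 22 of the B cell receptor gene Cd79a. It held 98.7% of the Igkv10-96 UMIs and 99.8% of the Ighv1-80 UMIs of all 68 cells. Another, of 16859 UMIs, had 8827 UMIs of the growth hormone gene Gh, where the other cells of FMC_new had 6 to 49. These 2 cells hold more UMIs than most of the kind and so lower the CPM of its other genes. Without these and the other cells that held at least 10 UMIs of 2 or more genes of another lineage, 9 cells of C-ON and 53 of FMC_new remained.

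The Xcr1/Clec9a cells held the RNA of type 1 conventional dendritic cells and little of the monocyte list. Xcr1, the receptor for XCL1, had 3, 6 and 12 UMIs (lowest, median and highest) in the 4 cells of C-ON and 0, 3 and 8 in the 9 cells of FMC_new. Clec9a, a receptor for dead cells, had 1, 5 and 8 and 0, 4 and 6 in the same order. Irf8, the transcription factor on which these dendritic cells depend, and which was not used by the rule or for the kind, had 7, 14 and 17 UMIs in C-ON and 0, 13 and 19 in FMC_new. These cells gave 80.5% of the 200 Irf8 UMIs, with similar levels in the libraries (1197 CPM in C-ON and 1177 in FMC_new). Their leading genes, by the fold over the highest of the other kinds, also held Cadm1 (15.9-fold), the lysosomal hydrolase Naaa (11.5-fold) and Wdfy4, which is needed for cross-presentation. Cells of this sort were many more than the rule took: 141 kept cells of C-ON and 731 of FMC_new had MHC class II RNA and a UMI of Xcr1 or Clec9a, of which 88 and 333 held at least 3, as all members of the kind did, and 4 and 9 met the Ly6c2 rule. Of the cells that failed Ly6c2 alone, 7 of 13 in C-ON and 37 of 105 in FMC_new were of this kind.

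**Figure D3:**
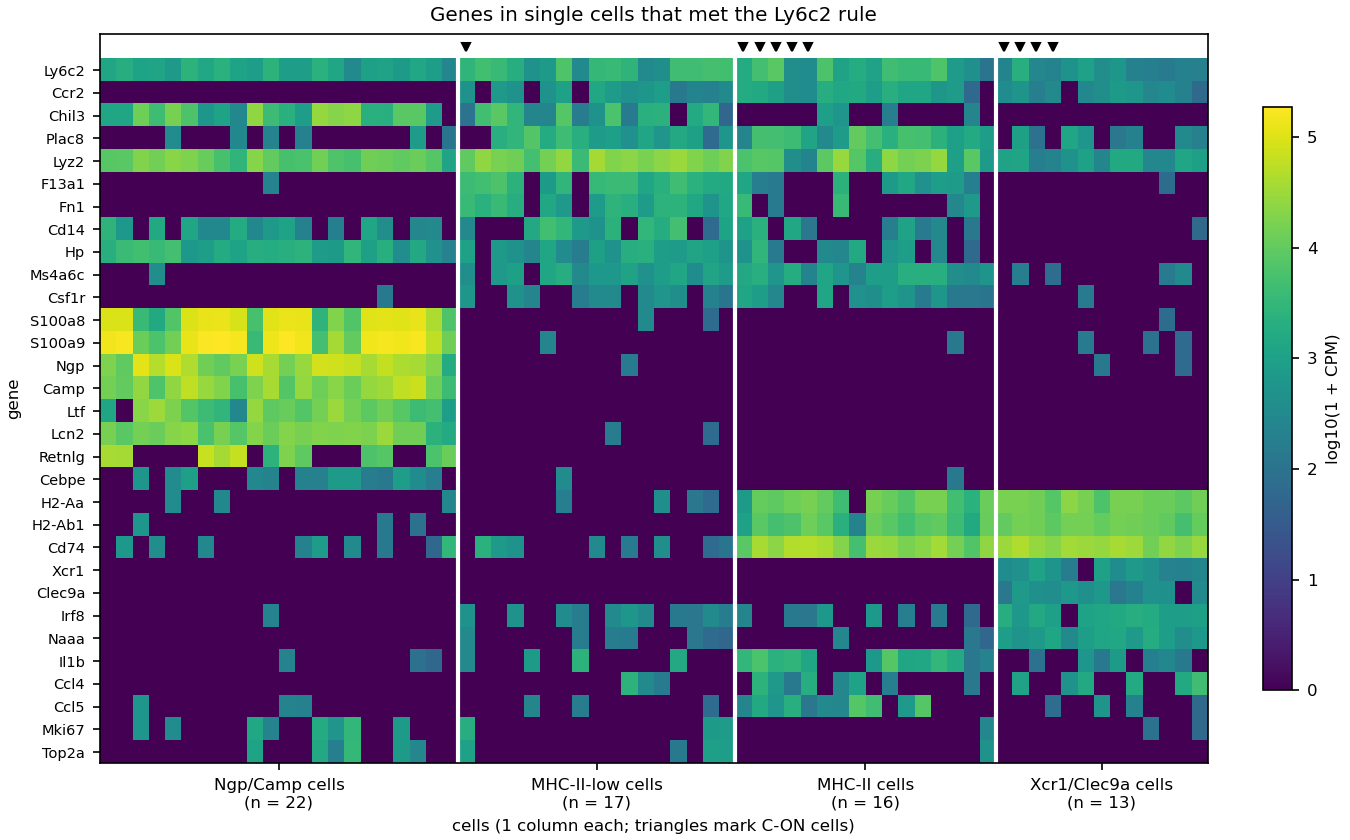
Level of 31 genes (rows) in each of the 68 cells (columns), as the log10 of 1 plus CPM per cell, with the cells ordered by kind and a triangle over each cell of C-ON. Granule genes are high in the first block with scattered UMIs elsewhere, F13a1 and Fn1 are found mostly in the second, MHC class II genes in the blocks after it, and Xcr1 and Clec9a in the last.

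The MHC-II and MHC-II-low cells, which shared the monocyte list, differed from each other in other genes. Both were compared in FMC_new, 11 against 16 cells, over 3881 genes. Of these, 18.8% were past 2-fold higher in the MHC-II cells and 13.2% lower. These are folds between sums of cells of 1 library, where 1 cell can carry a gene, and no test was possible.

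Of the interferon response genes, more were higher than lower in the MHC-II cells: 12 of 22 tested past 2-fold higher and 1 lower, with a median log2 difference of 1.04 against -0.08 over all genes tested. Gbp2, an interferon-induced GTPase, was at 344 CPM (228 to 497) with a UMI in 9 of 11 cells, against 9.55 (0.242 to 53.2) from 1 UMI in MHC-II-low cells. Isg15, a ubiquitin-like interferon target, was 381 against 172 CPM. Cxcl9, which attracts T cells, was at 454 CPM but had a UMI in 3 of 11 cells only. Ly6a, an interferon-inducible relative of Ly6c2, was 381 CPM in the MHC-II cells of FMC_new and 1992 in those of C-ON, 9.96-fold above the MHC-II-low cells in FMC_new. The summed interferon list was 9205 CPM in MHC-II cells and 4881 in MHC-II-low cells of FMC_new. In the 5 MHC-II cells of C-ON it was 17590 (16180 to 19090).

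Genes of the MHC class II machinery outside the 4 used to divide the cells went the same way. Of 7 tested, 4 were higher (Ciita, H2-DMa, H2-DMb1 and H2-DMb2) and none lower, with a median log2 difference of 3.05. Ciita, the master regulator of these genes, was at 111 CPM and without a UMI in the MHC-II-low cells, and H2-DMb1, which helps to load peptides, was at 565 against 9.55 CPM. Since the cells were divided on MHC class II RNA, these genes are not independent of the division.

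The monocyte list outside the rule was compared in the same way. Of 29 genes tested, 6 were higher, a share near that of all genes (Ms4a4c, Ms4a6b, Fcgr1, Samhd1, Sirpb1c and Ctss) and 13 lower, among them F13a1, Vcan, Fn1, Cd14, Hp and Thbs1, with a median log2 difference of -0.92. Fcgr1, the high-affinity IgG receptor, was 147 against 28.7 CPM, and Ctss, a lysosomal protease that trims the class II invariant chain, 1731 against 716. Cd14 was 10.1-fold lower, and the coagulation factor gene F10 was at 24.6 against 401 CPM. For Cd14 this order was not seen in C-ON. Its MHC-II cells held 11, 13, 4, 1 and 0 Cd14 UMIs, and its 1 MHC-II-low cell held 3 among 9719 UMIs. In the coagulation and matrix list, 6 of 11 were lower (F13a1, F10, F3, Thbs1, Vcan and Fn1) and 1 higher, with a median of -1.62, and 4 of those 6 genes are also in the monocyte list. Cell cycle genes were lower for 6 of 14 and higher for 1. At least 8 of 15 cell cycle genes had a UMI in 2 of the 16 MHC-II-low cells and in 1 of the 11 MHC-II cells. Those 2 cells held all Mki67 UMIs of the MHC-II-low cells of FMC_new.

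**Figure D4:**
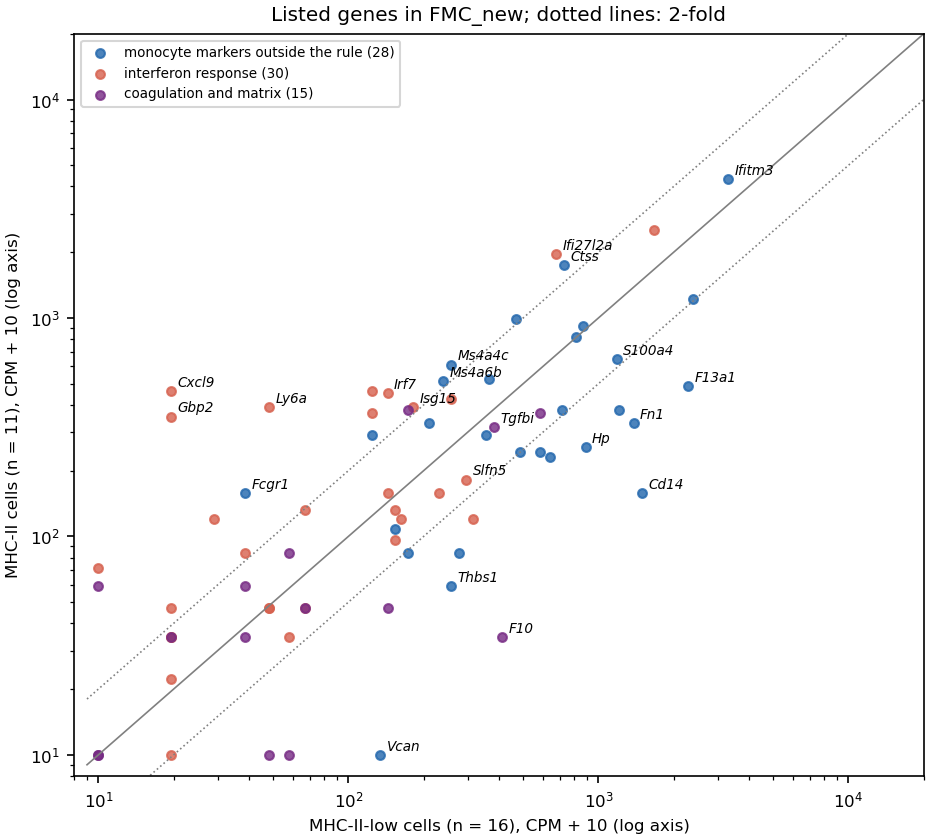
Level in CPM plus 10 of genes of 3 lists in the 11 MHC-II cells (vertical axis) against the 16 MHC-II-low cells (horizontal axis) of FMC_new, both axes logarithmic, with dotted lines at 2-fold. Interferon genes such as Gbp2 lie above the upper line, while F13a1, Fn1 and Cd14 lie below the lower one.

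Soluble mediators of the tumor microenvironment differed by kind more than the pooled level shows. The study measured RNA of such mediators, Ccl2 to Ccl5 and Il1b among them, in treated nerves. Il1b had 248 UMIs in all, 77.8% of them in MHC-II cells. It was present in all 5 MHC-II cells of C-ON, at 11, 17 and 34 UMIs (lowest, median and highest), and in 8 of 11 of FMC_new, at 0, 4 and 41. The Il1b level of MHC-II cells was 2911 CPM (2355 to 3559) in C-ON against 1203 (977 to 1466) in FMC_new, where MHC-II-low cells had 277. Other populations of FMC_new held more Il1b: 1673 CPM in C1q macrophages, 2577 in neutrophils and 3530 in Cd209a dendritic cells. Free RNA was present too, since an Il1b UMI was in 9.54% of oligodendrocytes of FMC_new at 34.9 CPM.

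Ccl5, which attracts T cells and monocytes, was the chemokine gene most tied to the MHC-II cells, with 90.9% of 154 UMIs. These were in all 5 cells of C-ON (1, 4 and 16 UMIs) and in 6 of 11 of FMC_new (0, 1 and 49). In FMC_new 3 cells held 49, 33 and 21 of them and the others at most 4, so its level rests on these 3 cells. The Ccl5 level of MHC-II cells was 950 CPM (646 to 1348) and 1338 (1098 to 1614), below the 3551 CPM of T cells in FMC_new and above the 643 of C1q macrophages. An oligodendrocyte of FMC_new had a Ccl5 UMI in 23.6% of cases, at 87.8 CPM, and the 75.6 CPM of the Xcr1/Clec9a cells and the 24.2 and 28.7 of the Ngp/Camp and MHC-II-low cells were at or below that background.

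Ccl4, a chemokine gene of activated myeloid and T cells, had 201 UMIs, and the libraries differed in which kind held them. In FMC_new 81.6% were in Xcr1/Clec9a cells, at 1338 CPM (1113 to 1596) against 111 in MHC-II cells. In C-ON 75.5% of 49 UMIs were in MHC-II cells, at 1134 CPM (798 to 1563), and Xcr1/Clec9a cells had 276 (143 to 483). A single cell held 70 UMIs, the median Xcr1/Clec9a cell of FMC_new 3, and 5 of 9 had any. C1q macrophages had 2008 CPM in FMC_new and 1082 in C-ON. Ccl2, the ligand of CCR2, had 43 UMIs over the 68 cells and Ccl3, a related inflammatory chemokine gene, also 43. Ccl2 was at 172 CPM in MHC-II cells and 151 in Xcr1/Clec9a cells of FMC_new against 872 in C1q macrophages, and Ccl3 at 210 CPM in MHC-II-low cells against 747. No UMI of Ccl2, Ccl3 or Ccl4 was in an Ngp/Camp cell.

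**Figure D5:**
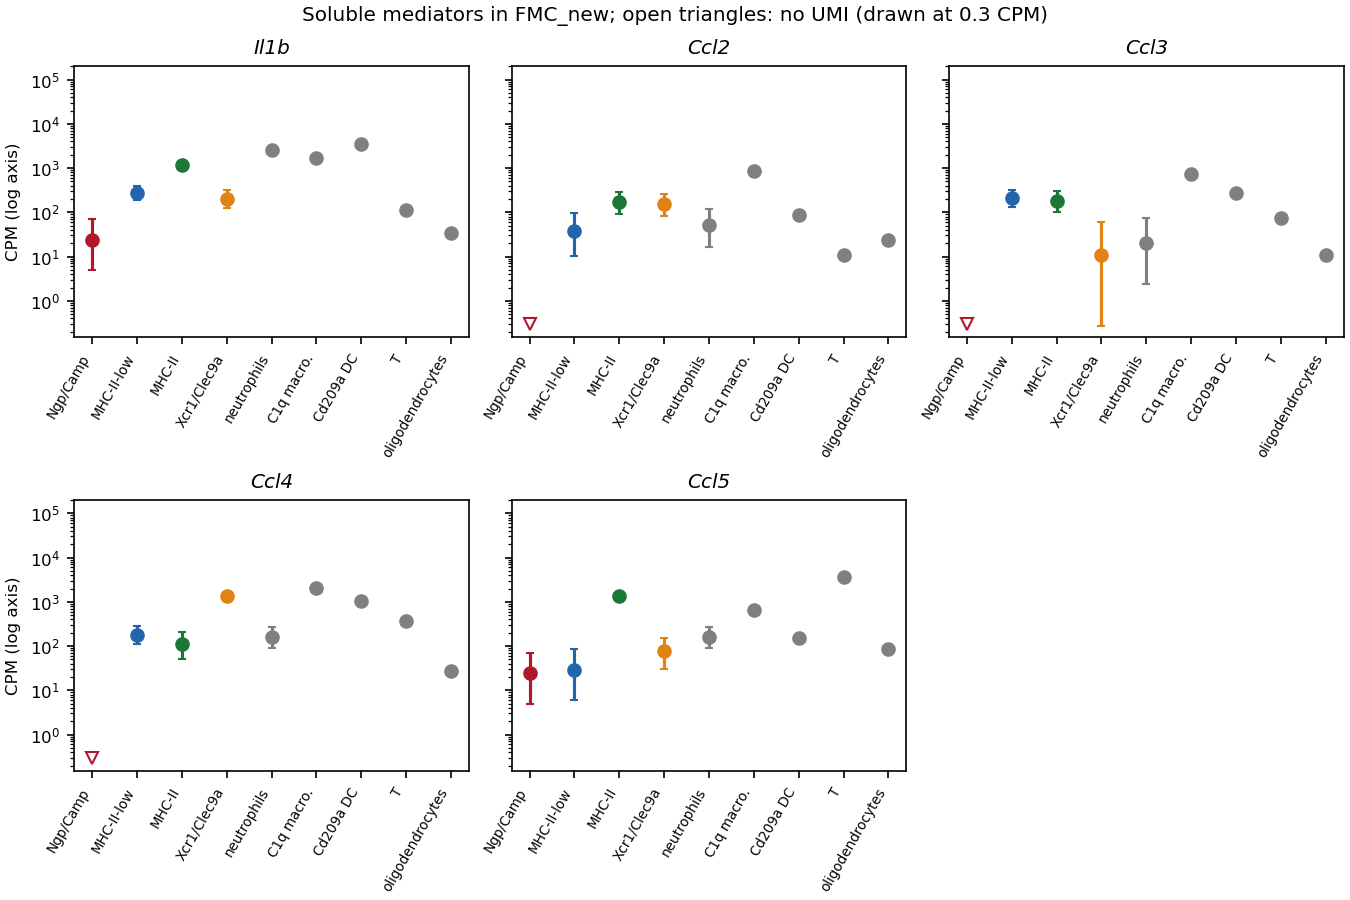
Level in CPM (log axis, exact 95% Poisson intervals, open triangles for no UMI) of Il1b, Ccl2, Ccl3, Ccl4 and Ccl5 in the 4 kinds and in 5 other populations of FMC_new. MHC-II cells lead the kinds for Il1b at 1203 CPM and share 1338 CPM with the Xcr1/Clec9a cells for different genes, Ccl5 in the former and Ccl4 in the latter, while Ccl2 is highest in C1q macrophages at 872 CPM.

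Against C1q macrophages, 185 cells of C-ON and 676 of FMC_new, the selected cells taken as a whole had 5.99% of 3020 tested genes past 2-fold higher and 7.25% lower in both libraries. Of 26 tested genes of the monocyte list outside the rule, 10 were higher, among them Fn1, Hp, Ifitm6, Gpr141, Clec4e and Emilin2, and 2 lower (Cd14 and Csf1r), with a median log2 difference of 0.96 against 0.07 over all genes tested. Csf1r, the target of pexidartinib, was at 319 CPM in MHC-II cells, 201 in MHC-II-low cells, 8.05 in Ngp/Camp cells and 537 in C1q macrophages of FMC_new. The smaller of the library folds was 102 for Hp, the haemoglobin scavenger haptoglobin. That fold was of FMC_new, where the Ngp/Camp cells held 169 of 281 Hp UMIs and 251 of 359 Ifitm6 UMIs. In C-ON, 2 cells held 17 and 10 of the 30 Hp UMIs. Without the Ngp/Camp and Xcr1/Clec9a cells the balance turned, from 181 genes higher and 219 lower to 296 higher and 145 lower. Border macrophage genes were lower for 6 of 7 tested, with a median of -3.50, and 5 to 8 of the 8 genes of that list were without a UMI in each kind of FMC_new. Chemokine genes were lower for 7 of 14 and higher for none (median -3.13), led by Ccl12, a ligand of CCR2, and Ccl8, at least 16.8-fold and 11.7-fold lower against no UMI in the cells of C-ON. Apoe was 17.1-fold and the mannose receptor gene Mrc1 at least 14.7-fold lower.

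Against dendritic cells with Cd209a, 135 cells of C-ON and 394 of FMC_new, 6.25% of 2814 tested genes were higher and 4.8% lower in both libraries. Monocyte genes outside the rule were higher for 13 of 25 and lower for none (median 1.30 against 0.07), and interferon genes higher for 7 of 17 and lower for none (median 1.14). Without the Ngp/Camp and Xcr1/Clec9a cells, 323 genes were higher and 86 lower in place of 176 and 135. Hp was at least 110-fold, F13a1 57.3-fold and Fn1 52.9-fold higher. Those are the smaller folds, from C-ON. There 1 cell held 17 of 30 Hp UMIs, and another held 40 of 47 F13a1 and 37 of 53 Fn1 UMIs. The lectin genes Mgl2 and Clec10a were 19.2-fold and at least 8.39-fold lower. Against the 46 neutrophils of FMC_new, 16.1% of 4302 genes were higher and 30.4% lower, and the number higher went from 693 to 1060 without the Ngp/Camp and Xcr1/Clec9a cells. Ngp, Camp, Ltf and Lcn2 were among the higher neutrophil genes, since the Ngp/Camp cells are part of the sum, while 5 others of the 10 tested were lower. All 9 tested MHC class II genes were higher, with a median of 3.58. F13a1, without a UMI in the neutrophils, was at least 22.7-fold higher.

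Between the libraries, with immunoglobulin, ribosomal and pituitary hormone genes left aside, granule genes had the largest folds of FMC_new over C-ON. Among the genes left aside, Gh was at 24080 CPM in the selected cells of FMC_new and at 0 in those of C-ON. Of these Gh UMIs, 90.9% came from 1 cell. S100a9, S100a8, Ngp, Camp and Lcn2 had no UMI in the 10 cells of C-ON, so against the floor of 3 counts their levels in FMC_new were at least 812-fold, 577-fold, 326-fold, 222-fold and 112-fold higher. Genes higher in C-ON rested on single cells in part: Cxcl2 was 28.2-fold higher with 42 UMIs from 1 cell of 10, and Cxcl1 25.1-fold (lower limit 7.17) from 1 cell. Bcl2a1b, a survival gene with near-identical copies among which reads could be split, was 21.2-fold higher with a UMI in 6 of 10. Cd74, the invariant chain, was at 28990 CPM in the cells of C-ON against 10430 in those of FMC_new. Lyz2 was at 2938 against 9914.

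Immediate early and stress genes, which rise when tissue is dissociated, summed to 2881 CPM in Ngp/Camp, 9322 in MHC-II-low, 13210 in MHC-II and 14380 in Xcr1/Clec9a cells of FMC_new, below C1q macrophages (23540) and Cd209a dendritic cells (20690). Their part in the differences between the kinds was not tested. Nr4a1, which is an early gene and also the factor on which patrolling monocytes depend, was at 554 CPM in MHC-II-low and 1047 in Xcr1/Clec9a cells. Of the 15 genes of the patrolling monocyte list, 5 had a UMI in at least 20% of cells in each kind of FMC_new. Over all genes the share was 7.77% in Ngp/Camp, 11.4% in MHC-II-low, 11.9% in MHC-II and 17.5% in Xcr1/Clec9a cells. Cx3cr1, which patrolling monocytes carry at high level, was at 0, 66.9, 147 and 21.6 CPM in Ngp/Camp, MHC-II-low, MHC-II and Xcr1/Clec9a cells. Oligodendrocyte RNA was in nearly every cell, with a UMI of the myelin gene Mbp in 65 of 68. The oligodendrocyte list summed to 3042, 2397, 1620 and 6002 CPM in the same order, and no mast cell gene had a UMI in any kind of FMC_new. Nf1 itself was at 32.2, 57.3, 49.1 and 119 CPM in FMC_new, too few UMIs to read an order.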

How the data were processed

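Single-cell RNA of 2 optic nerve libraries was captured with 10x Genomics chemistry that reads the start of transcripts, alongside T cell receptor enrichment. The authors deposited UMI counts per gene and barcode as whole numbers, without normalization. The file headers and the submitters' processing notes name Cell Ranger 7.2.0 and mm10, and the notes also list Seurat 5 and 5.2.1. Removal of doublets or free RNA is not given in the sources used here, and none was done here. The total was 85101211 UMIs in 10845 barcodes of C-ON and 129113325 in 21341 of FMC_new.

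Barcodes were kept with 500 to 5000 genes, 500 to 20000 UMIs and at most 5% mitochondrial UMIs (8834 and 16818). The rule for the cells, the 34 gene lists and the compared populations were chosen with earlier results of these data known, and the 4 kinds after the values had been seen. The lists serve as counts only. Both libraries form 1 group, cells are not replicates and the compared cells differ by the rule itself, so no test was made. Levels are UMIs summed over the cells of a library per 1000000 UMIs (CPM), and a fold counted as past the limit at 2-fold with at least 50 CPM on either side in each library used, with genes under 3 counts raised to 3 counts in the denominator. Compared cells were neutrophils (at least 10 UMIs of S100a8 and S100a9 and 2 of Csf3r, Cxcr2, Retnlg and Mmp9, at most 1 of Ly6c2), C1q macrophages (at least 10 UMIs of C1q and 10 of H2-Aa, H2-Ab1 and H2-Eb1) and dendritic cells with Cd209a (a Cd209a UMI and at least 10 of the same MHC class II genes, at most 1 of Ly6c2). Genes that defined a population were left out. Median log2 differences used CPM plus 10. Genes were named from the lists, as the 10 largest folds in each direction for each comparison (rule, immunoglobulin, ribosomal and pituitary hormone genes aside), as the 10 largest between libraries, and as the 30 highest, and a few that lead a kind were named after their values were seen. Gene positions came from GENCODE M21 and promoters from RefSeq, both on GRCm38.

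Alternatives were other limits of the rule, of depth and of fold, a mean over cells, and leaving out possible doublets or a library. The fold comparison was tested on simulated counts. Computation used pandas 2.3.3, scipy 1.17.1 and numpy 2.4.6 in Python 3.11.15, and figures matplotlib 3.10.9. Some genes of the lists are not reported here.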

Additional observations from a re-analysis of the deposited data

How the results depend on the processing

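Of 140 recomputed values of 14 results, 97 moved by less than the limits set for them and 43 by more. The number of cells was 43 with at least 4 Ly6c2 UMIs, 33 without the Ngp/Camp and Xcr1/Clec9a cells, and 8 (0 in C-ON) without cells holding a UMI of 2 or more genes of another lineage, which took the mean share from 0.229% to 0.0238%. Since 65 of 68 cells held an Mbp UMI, that rule removed nearly all. Levels in that setting are those of 8 cells of FMC_new alone and cannot be set beside a mean of 2 libraries. Leaving out a library gave 10 to 58 cells. Mean levels over the libraries moved for Il1b from 761.9 to 1498 CPM without the Ngp/Camp and Xcr1/Clec9a cells, for Ccl2 from 104 to 61.3 with at least 4 Ly6c2 UMIs, and for Ccl3 from 76.3 to 169 without possible doublets and 135 without both kinds. Ccl5, at 338, became 402, 1182 and 667 in those 3 settings, 399.9 without the Ngp/Camp cells alone and 437 as a mean over cells, while Ccl4 stayed within the limits. Genes past 2-fold against C1q macrophages were 181 higher and 219 lower. They became 78 and 97 at 3-fold, 96 and 130 at 100 CPM, 296 and 145 without both kinds, and 515 higher at 10 CPM. With a single library they ranged from 506 to 832 higher and from 461 to 576 lower. Against Cd209a dendritic cells, 176 higher and 135 lower became 77 and 51 at 3-fold, 72 and 88 at 100 CPM, 323 and 86 without both kinds, 601 higher at 10 CPM and 265 higher as a mean over cells. With a single library they ranged from 493 to 928 and from 319 to 328. Against neutrophils, which only FMC_new held so that no library could be left out, 693 higher and 1309 lower became 248 and 794 at 3-fold, 414 and 659 at 100 CPM, 1060 higher without both kinds and 2660 lower at 10 CPM. Stricter limits test fewer genes, and a single library drops the need to pass in both. The alternatives without Ngp/Camp or Xcr1/Clec9a cells, and a stricter doublet limit, were chosen after seeing the data. No paired analysis was possible because both libraries belong to 1 group. The 10 cells of C-ON limit every value of that library.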

Other observations

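Cycling cells with primary granule protease genes stood among the MHC-II-low and Ngp/Camp cells. At least 8 of 15 cell cycle genes had a UMI in 10 of the 68 cells: 6 Ngp/Camp, 3 MHC-II-low, 1 MHC-II and no Xcr1/Clec9a cell. The MHC-II-low cell of C-ON held 19 UMIs of Mki67 and 4 of Prtn3, the gene of proteinase 3. In FMC_new, 1 MHC-II-low cell held 14 UMIs of Prtn3, 8 of Elane, which encodes neutrophil elastase, 2 of Mpo, which encodes myeloperoxidase, and 11 of Mki67. Another held 14 of Mki67 and 2 of Prtn3. An Ngp/Camp cell held 9 UMIs of Elane and 10 of Prtn3. These proteins are made by marrow progenitors of granulocytes and monocytes. The summed progenitor list was 233 CPM in Ngp/Camp, 287 in MHC-II-low, 49.1 in MHC-II and 119 in Xcr1/Clec9a cells of FMC_new.

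Single cells held RNA of the nerve as well. An Xcr1/Clec9a cell of FMC_new had 98 UMIs of the myelin gene Mbp, and an MHC-II cell of C-ON had 102. A UMI of C1qa, C1qb or C1qc, within the limit of 4, was in 18 of the 68 cells.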
